A study of Mus musculus with 8 samples.

Results

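Antiviral restriction factors are host proteins that block a step of virus replication inside the cell. The expression of 9 such genes was examined in the mouse cerebral cortex after bilateral carotid artery stenosis (BCAS), an operation that narrows both common carotid arteries with small coils and lowers cerebral blood flow. The genes were taken by symbol, as a group set up with earlier results of these data known: Ifitm1, Ifitm2, Ifitm3, Mx1, Mx2, Bst2, Samhd1, Eif2ak2 and Adar. Each of the 9 symbols matched 1 of the 54752 genes in the count tables, and all 9 passed the filter on low counts that left 17136 genes for testing.

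Most of these genes belong to the interferon-stimulated genes. Interferons bind receptors at the cell surface, Janus kinases then activate transcription factors, and a complex that includes IRF9 binds interferon-stimulated response elements in promoters. The products act at successive steps of infection. IFITM proteins sit in endosomal and plasma membranes and hinder the fusion of viral envelopes, Mx proteins are dynamin-like GTPases that trap viral components, SAMHD1 hydrolyses deoxynucleotides, PKR (encoded by Eif2ak2) halts translation upon binding double-stranded RNA, ADAR1 (encoded by Adar) edits adenosine to inosine in double-stranded RNA, and BST2 (tetherin) holds budding virions on the cell surface. In the brain they are induced in microglia and in other cell types upon interferon exposure, with or without a virus.

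The data were RNA-seq counts from the right cerebral cortex of 8 wild-type mice, C57BL/6 per the labels and adult C57BL/6 J males per the methods, with 1 mouse per library. The 4 Sham mice had a sham operation and the 4 BCAS mice carried a narrower coil on the right carotid artery than on the left, and tissue was taken 3 weeks after surgery. The comparison asks how deeper hypoperfusion altered cortical transcripts. The numbers 1 to 4 given to the mice of each group only name the animals. Levels are given as CPM (counts of a gene per 1000000 counts of its library), scaled by TMM normalization, and changes as the log2 fold change of BCAS over Sham from edgeR's quasi-likelihood test. A gene was called at a Benjamini-Hochberg adjusted p under 0.05 with an absolute log2 fold change above 1.

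Total counts ran from 16759364 to 21794435 per library, and 3 counts, the upper limit that a count of 0 allows, stood for 0.132 to 0.187 CPM, which covers counting error only. All 7 markers of cortical excitatory neurons that were listed passed the filter, with a summed level of 2005 to 2273 CPM in Sham and 641 to 1732 CPM in BCAS mice. The library of Sham mouse 3 stood apart by its choroid plexus markers, which summed to 779 CPM and set the upper end of the Sham range of 18.2 to 779 CPM, against 40.7 to 75.2 CPM in BCAS mice. Striatum markers, of which 0 of 4 were called, summed to 379 CPM in BCAS mouse 4 and to 135 to 231 CPM in the other libraries. Without Sham mouse 3 or without BCAS mouse 4, the same call as with all mice was made for each of the 9 genes.

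Transcripts of 8 of the 9 restriction factors were higher in BCAS than in Sham cortex, and those of Adar were not. The 8 called genes were Ifitm1, Ifitm2, Ifitm3, Mx1, Mx2, Bst2, Samhd1 and Eif2ak2, against a background of 11.0% of all tested genes called higher and 1.28% called lower. In the same 8 genes every BCAS mouse lay above every Sham mouse, which held for 18.5% of all tested genes. The median log2 fold change over the 9 genes was 2.60, compared with -0.01 over all genes tested. The estimates ran from 1.82 for Samhd1 to 5.70 for Mx1, with Adar at -0.18.

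**Figure D1:**
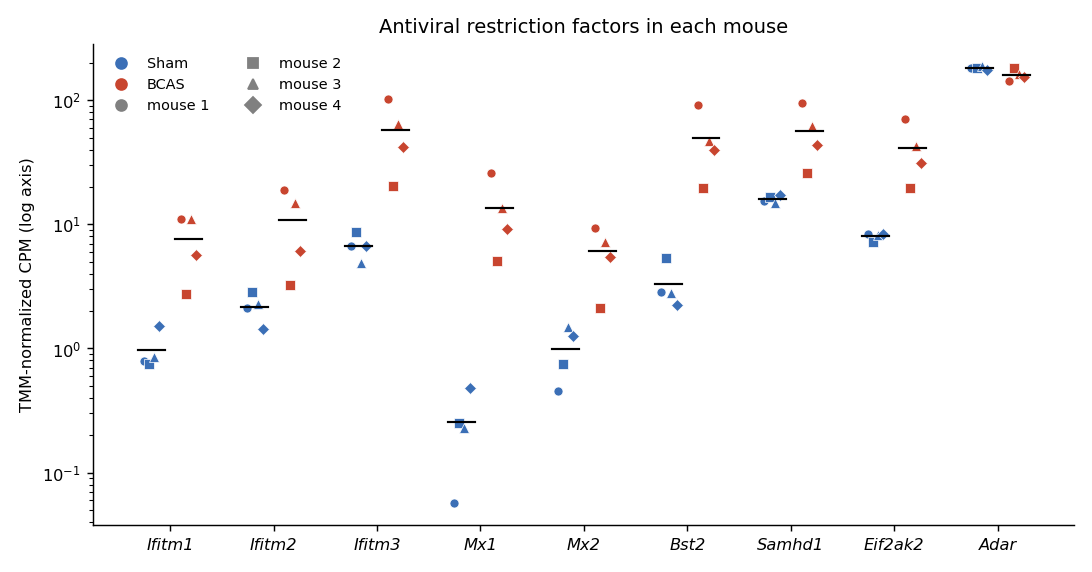
Level of each of the 9 restriction factors in CPM on a log10 axis, with 1 point per mouse (4 Sham, 4 BCAS) and the group mean as a bar. The Sham and BCAS points do not overlap in 8 genes, whereas those of Adar do, with 174 to 189 CPM in Sham and 142 to 181 CPM in BCAS mice.

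Because 8 of the 9 genes changed in the same direction, the DNA around their transcription starts was read for the element bound by the interferon-activated complex. RefSeq windows on GRCm38.p6, each of 300 bases from 250 before to 50 after the start, were found for 7 of the 9 genes, not for Mx1 and Mx2. The letters searched, on both strands, were GAAA, any 2 bases and GAAA again, a core of the interferon-stimulated response element (ISRE). At least 1 match lay in the windows of 4 genes (Ifitm2, Ifitm3, Bst2 and Eif2ak2) and none in those of Ifitm1, Samhd1 and Adar, compared with 3.99% of all 27025 genes with a window and 3.44% of their 32851 windows. The 4 windows that hold a match are printed below 5′ to 3′ on the strand of the gene, since they show where the element sits in each gene, with the matched bases in capitals and positions counted from the start. A match is a run of letters and not a measured binding site. Nor does the lack of a match show that the element is absent. In Adar, 1 window holds gaaagtgaac, which differs from the letters searched at 1 base.
Ifitm3 (chr7:141010695-141010994, minus strand): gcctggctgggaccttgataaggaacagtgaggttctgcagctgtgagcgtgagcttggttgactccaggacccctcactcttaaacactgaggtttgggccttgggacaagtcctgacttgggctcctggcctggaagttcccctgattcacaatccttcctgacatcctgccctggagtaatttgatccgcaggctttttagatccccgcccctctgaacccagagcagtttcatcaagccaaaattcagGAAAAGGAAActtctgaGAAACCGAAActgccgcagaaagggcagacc
Ifitm2 (chr7:140955912-140956211, minus strand): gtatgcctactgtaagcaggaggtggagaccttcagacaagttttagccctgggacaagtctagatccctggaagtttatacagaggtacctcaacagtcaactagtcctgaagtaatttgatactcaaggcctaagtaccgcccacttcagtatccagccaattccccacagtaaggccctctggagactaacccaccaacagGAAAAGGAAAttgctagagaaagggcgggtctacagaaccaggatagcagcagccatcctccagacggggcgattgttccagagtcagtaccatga
Bst2 (chr8:71537423-71537722, minus strand): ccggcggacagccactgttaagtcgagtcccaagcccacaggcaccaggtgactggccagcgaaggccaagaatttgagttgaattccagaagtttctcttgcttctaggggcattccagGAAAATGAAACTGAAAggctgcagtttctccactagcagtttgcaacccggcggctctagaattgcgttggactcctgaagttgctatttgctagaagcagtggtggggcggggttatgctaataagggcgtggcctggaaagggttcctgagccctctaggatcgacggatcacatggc
Eif2ak2 (chr17:78882523-78882822, minus strand): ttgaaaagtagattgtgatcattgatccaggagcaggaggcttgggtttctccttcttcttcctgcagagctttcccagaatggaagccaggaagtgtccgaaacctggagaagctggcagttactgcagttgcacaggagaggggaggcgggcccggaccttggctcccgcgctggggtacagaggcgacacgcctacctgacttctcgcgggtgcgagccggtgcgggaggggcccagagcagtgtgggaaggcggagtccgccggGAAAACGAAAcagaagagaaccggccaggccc
In Ifitm3 there were 2 separate matches, both just after the start, at bases 3 to 12 (GAAAAGGAAA) and 20 to 29 (GAAACCGAAA). In Ifitm2 the match at bases -46 to -37 before the start had the same letters as the first match of Ifitm3. The 2 matches of Bst2 overlapped, at -130 to -121 and -124 to -115. The match of Eif2ak2 lay after the start, at bases 19 to 28.

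The IFITM genes encode small membrane proteins that restrict viral entry, and the 3 genes studied lie close together on chromosome 7 (mm10). Ifitm3 (ENSMUSG00000025492.6, chr7:141009586-141010770, minus strand) was the most abundant. It was measured at 6.65, 8.67, 4.92 and 6.64 CPM in Sham mice 1 to 4 and at 102, 20.5, 64.2 and 42.0 CPM in BCAS mice 1 to 4. The lowest BCAS mouse, mouse 2, was well above the highest Sham mouse. Means were 6.72 ± 1.54 and 57.2 ± 34.9 CPM (SD, n = 4 each), an 8.52-fold increase (95% confidence interval 4.21 to 17.3; log2 fold change 3.09, SE 0.45, edgeR adjusted p = 0.00302).

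Ifitm1 (ENSMUSG00000025491.14, chr7:140967221-140969825, plus strand) was the least abundant of the 3, with 0.796, 0.749, 0.858 and 1.51 CPM in Sham and 10.9, 2.73, 11.0 and 5.61 CPM in BCAS mice. Sham mouse 4 was the highest of its group, and the groups did not overlap. The increase was 7.70-fold (95% confidence interval 3.65 to 16.2; log2 fold change 2.95, SE 0.48, edgeR adjusted p = 0.00425).

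Ifitm2 (ENSMUSG00000060591.9, chr7:140954837-140955987, minus strand) had 37, 46, 40 and 24 counts in Sham and 430, 63, 277 and 111 counts in BCAS mice, with means of 2.18 ± 0.586 and 10.8 ± 7.36 CPM (SD, n = 4 each). Here the groups were nearly in contact, since BCAS mouse 2 was at 1.13 times the CPM of the highest Sham mouse. The increase was 4.95-fold (95% confidence interval 2.17 to 11.3; log2 fold change 2.31, SE 0.53, edgeR adjusted p = 0.0143), the weakest evidence among the 8 called genes, and with limma-voom the adjusted p was 0.0565. Of its exon bases, 40.9% are shared with Gm45717 on the same strand, which had 0 counts in all libraries.

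The composition of the IFITM transcripts was compared next. Of the counts of the 3 genes, Ifitm3 took 67.6% ± 4.44 in Sham and 76.1% ± 3.26 in BCAS mice (SD, n = 4 each). The share of Ifitm2 was 22.2% ± 5.47 and 13.6% ± 2.37, and that of Ifitm1 was 10.2% ± 4.13 and 10.3% ± 1.59. These are shares of raw counts, with no correction for length or for the exon bases that Ifitm2 shares with Gm45717. Reads that match both of these genes alike are left out, which can lower the share of Ifitm2. The log2 ratio of Ifitm3 to Ifitm2 was 0.89 higher in BCAS mice (SE 0.26, two-sided exact permutation p = 0.0571, adjusted p = 0.0952 over 5 ratios), which did not pass the threshold. The difference was 0.20 (SE 0.32) for Ifitm3 to Ifitm1 and -0.69 (SE 0.42) for Ifitm2 to Ifitm1, with exact permutation p-values of 0.6 and 0.143. These ratios depended on Sham mouse 4: without it they were -0.0068 for Ifitm3 to Ifitm1, -1.07 for Ifitm2 to Ifitm1 and 1.07 for Ifitm3 to Ifitm2, with an exact permutation p adjusted over 5 ratios of 0.943, 0.0476 and 0.0476. Transcripts of the 3 genes have 71.8% to 77.0% identity between pairs, and the longest shared run is 69 bases, between Ifitm2 and Ifitm3. Whether any reads were assigned to the wrong gene of a pair was not tested.

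The Ifitm family also has members outside the chosen 9. Ifitm10 (log2 fold change -0.15, edgeR adjusted p = 0.601) and Ifitm7 (0.13, adjusted p = 0.748) did not pass the test. Ifitm5 had at most 2 counts in any library. Ifitm6 was too low for testing under the filter, with 2, 2, 3 and 3 counts in Sham and 40, 10, 13 and 14 counts in BCAS mice.

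Mx1 and Mx2 encode dynamin-like GTPases and lie near each other on chromosome 16. Mx1 (ENSMUSG00000000386.15, chr16:97447035-97462907, minus strand) was almost silent in Sham cortex, with 1, 4, 4 and 8 counts. In BCAS mice it had 592, 98, 252 and 167 counts, or 26.0, 5.05, 13.6 and 9.10 CPM. By edgeR its log2 fold change of 5.70 (SE 0.66, adjusted p = 0.00184) was the highest of the 9 genes and ranked 43 among the 17136 tested genes. The fitted increase was 52.1-fold (95% confidence interval 18.5 to 147), and it rests on very few Sham counts: the log2 value was 3.32 when 1 was added to every CPM before taking logs, below the 3.39 of Bst2 on that scale. Both Mx1 and Mx2 passed the filter on low counts through their BCAS libraries.

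Mx2 (ENSMUSG00000023341.15, chr16:97535308-97560900, plus strand) had 8, 12, 26 and 21 counts in Sham and 212, 41, 134 and 101 counts in BCAS mice. These are 0.989 ± 0.472 and 6.04 ± 3.05 CPM (SD, n = 4 each), and every BCAS mouse was above every Sham mouse. The increase was 6.08-fold (95% confidence interval 2.77 to 13.3; log2 fold change 2.60, SE 0.50, edgeR adjusted p = 0.00791), and the log2 value was 1.73 when 1 was added to every CPM. RefSeq lists both Mx genes of the mouse reference genome as transcribed pseudogenes, whereas GENCODE lists Mx1 as protein coding and Mx2 as a polymorphic pseudogene. Many inbred laboratory strains are known to carry defective Mx alleles, and the transcript counts do not show whether a working protein was made.

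Mx1 and Mx2 were compared with each other within each mouse. Mx1 lay below Mx2 in all 4 Sham mice and above it in all 4 BCAS mice, with a mean log2 ratio of -1.62 in Sham and 1.08 in BCAS mice. The difference of 2.70 (SE 0.29) reached the smallest p that 4 against 4 mice allow (two-sided exact permutation p = 0.0286), and was 0.0714 after adjustment over the 5 ratios, which did not pass the threshold. With any 1 mouse left out, the exact permutation p stayed at 0.0286. Adjusted over the 5 ratios it was 0.0476 without Sham mouse 4 and 0.143 without Sham mouse 1, 2 or 3. With any 1 BCAS mouse left out it was 0.0714. The Sham ratios rest on 1 to 8 counts of Mx1. Their transcripts share 81.3% identity and a run of 140 bases.

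**Figure D2:**
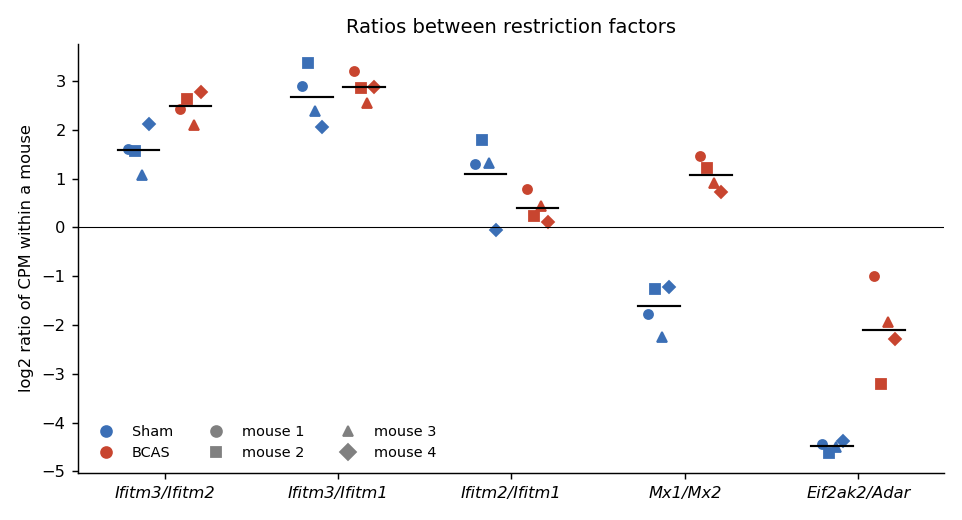
Log2 ratio of the CPM of 5 gene pairs within each of the 4 Sham and 4 BCAS mice, with 1 symbol per mouse and group means as bars. The ratio of Mx1 to Mx2 goes from a mean of -1.62 to 1.08 and that of Eif2ak2 to Adar from -4.49 to -2.11, whereas the mice of both groups overlap for the 3 IFITM pairs.

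Bst2 (ENSMUSG00000046718.8, chr8:71534255-71537456, minus strand) encodes tetherin, a membrane protein that anchors budding virions. Its level was 2.84, 5.37, 2.80 and 2.23 CPM in Sham and 90.7, 19.7, 46.7 and 39.6 CPM in BCAS mice. All BCAS mice were far above the Sham range, in which mouse 2 was the highest. The increase was 14.9-fold (95% confidence interval 6.95 to 31.9; log2 fold change 3.90, SE 0.49, edgeR adjusted p = 0.00204). It was below Mx1 by this estimate and above it on the log2(CPM + 1) scale, at 3.39 against 3.32.

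Samhd1 (ENSMUSG00000027639.16, chr2:157097533-157135265, minus strand) encodes a deoxynucleotide triphosphohydrolase that limits reverse transcription. It was steady in Sham mice at 15.3, 16.7, 14.9 and 17.1 CPM and reached 94.2, 26.0, 62.2 and 43.2 CPM in BCAS mice. The increase of Samhd1 was the smallest of the 8 (3.52-fold, 95% confidence interval 2.08 to 5.96; log2 fold change 1.82, SE 0.34, edgeR adjusted p = 0.00673).

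Genes that supply the deoxynucleotides on which SAMHD1 acts were examined beside it. Of 10 such genes, all tested, 3 were called higher and none lower, with a median log2 fold change of 0.35. The share called higher among all tested genes was 11.0%. The called genes were thymidine kinase Tk1 (1.87, edgeR adjusted p = 0.0104), thymidylate synthase Tyms (1.27, adjusted p = 0.00937) and the ribonucleotide reductase subunit Rrm2 (1.43, adjusted p = 0.0200). Dguok, a mitochondrial deoxyguanosine kinase, rose by 0.49 (adjusted p = 0.0235), below the fold threshold. SAMHD1 and ADAR1 are also among the proteins whose loss causes Aicardi-Goutières syndrome, an inherited interferon disease. Among 5 tested of 6 other genes of this syndrome, Ifih1 was called higher (1.72, adjusted p = 0.00817) and Lsm11 was at -0.76 (adjusted p = 0.0315), short of the fold threshold and under 0.05 in 2 of the 8 fits that left out a mouse. The ribonuclease H2 subunits Rnaseh2a (-0.30, adjusted p = 0.104) and Rnaseh2b (0.28, adjusted p = 0.273) did not pass, and the median was -0.10. On the log2(CPM + 1) scale Tyms rose by 0.82, below the fold threshold. In some alternative analyses the adjusted p reached 0.0627 for Rrm2, 0.0674 for Dguok and 0.0811 for Lsm11.

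Eif2ak2 (ENSMUSG00000024079.4, chr17:78852564-78882573, minus strand) encodes PKR, a kinase that phosphorylates the translation factor eIF2alpha when it binds double-stranded RNA. Its level was 8.30, 7.24, 8.24 and 8.33 CPM in Sham and 70.9, 19.6, 42.8 and 31.3 CPM in BCAS mice. Sham mouse 2 was slightly below the other three of its group, and all BCAS mice were above the Sham range. The increase was 5.13-fold (95% confidence interval 2.98 to 8.84; log2 fold change 2.36, SE 0.35, edgeR adjusted p = 0.00306).

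Among 14 partners of PKR and genes of the eIF2alpha pathway, all tested, 1 was called higher and none lower. Of all tested genes, 11.0% were called higher and 1.28% lower, so this count does not stand out. The median log2 fold change of the list was 0.08. The called gene was Trib3, a pseudokinase induced by this pathway (1.67, edgeR adjusted p = 0.0178), with a value of 0.87, below the fold threshold, on the log2(CPM + 1) scale. Dnajc3, an inhibitor of PKR, rose by 0.75 (adjusted p = 0.0226) and Prkra, an activator of PKR, by 0.33 (adjusted p = 0.0328), whereas the heme-regulated kinase Eif2ak1 fell by 0.27 (adjusted p = 0.0270), all short of the fold threshold. The adjusted p of these 4 genes rose above 0.05 in some alternative analyses, up to 0.0581, 0.0663, 0.0892 and 0.0806 respectively. Ppp1r15b, a phosphatase subunit that acts on eIF2alpha and was named after its values were seen, rose by 0.32 (adjusted p = 0.0403, up to 0.107 in alternative analyses), below the fold threshold. The remaining 9 genes did not pass. Their log2 fold changes were -0.60 for Asns, -0.42 for Chac1, -0.15 for Atf4 and 0.14 for Ddit3. They were 0.07 for Ppp1r15a, 0.09 for Tarbp2, 0.04 for Eif2s1, 0.05 for Eif2ak3 and 0.17 for Eif2ak4. These genes too were named after their values were seen.

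Adar (ENSMUSG00000027951.16, chr3:89715022-89753446, plus strand) encodes ADAR1, which edits double-stranded RNA and has a constitutive and an interferon-induced isoform. It was measured at 182, 182, 189 and 174 CPM in Sham and 142, 181, 164 and 154 CPM in BCAS mice. BCAS mouse 2 lay within the Sham range and the other three BCAS mice below it. Means were 182 ± 6.11 and 160 ± 16.4 CPM (SD, n = 4 each), with a log2 fold change of -0.18 (SE 0.09, 95% confidence interval -0.39 to 0.02, edgeR adjusted p = 0.141). The upper bound of the interval was a 1.01-fold level of the gene total. Without BCAS mouse 2 the value was -0.23 (adjusted p = 0.0459). Counts per gene cannot separate the isoforms of Adar, and 16.8% of its exon bases are shared with Chrnb2 on the opposite strand, in tables counted with no strand option.

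Set against Adar within each mouse, Eif2ak2 was higher in BCAS cortex by 2.38 on the log2 scale (SE 0.46). The mean log2 ratio of these genes, which both encode proteins that bind double-stranded RNA, was -4.49 in Sham and -2.11 in BCAS mice and the groups did not overlap (two-sided exact permutation p = 0.0286). The p adjusted over 5 ratios, 0.0714, did not pass the threshold. Of 10 further ADAR family and double-stranded RNA sensing genes, 8 were tested and 5 were called higher, with a median of 1.51. The share over all tested genes was 11.0%. The sensors Ifih1 (1.72, edgeR adjusted p = 0.00817), Ddx58 (2.40, adjusted p = 0.00470) and Dhx58 (3.26, adjusted p = 0.00502), the Z-nucleic acid sensor Zbp1 (5.06, adjusted p = 0.00280) and the adaptor Mavs (1.30, adjusted p = 0.00946) rose. Zbp1, with 8, 13, 10 and 3 counts in Sham mice, passed the filter on low counts through its BCAS libraries. The other editing enzymes, named after their values were seen as was Mavs, were Adarb1 (-0.51, SE 0.11, adjusted p = 0.0106) and Adarb2 (-0.13, adjusted p = 0.435). Adarb1, at means of 273 and 191 CPM, passed the p threshold but not that of fold.

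**Figure D3:**
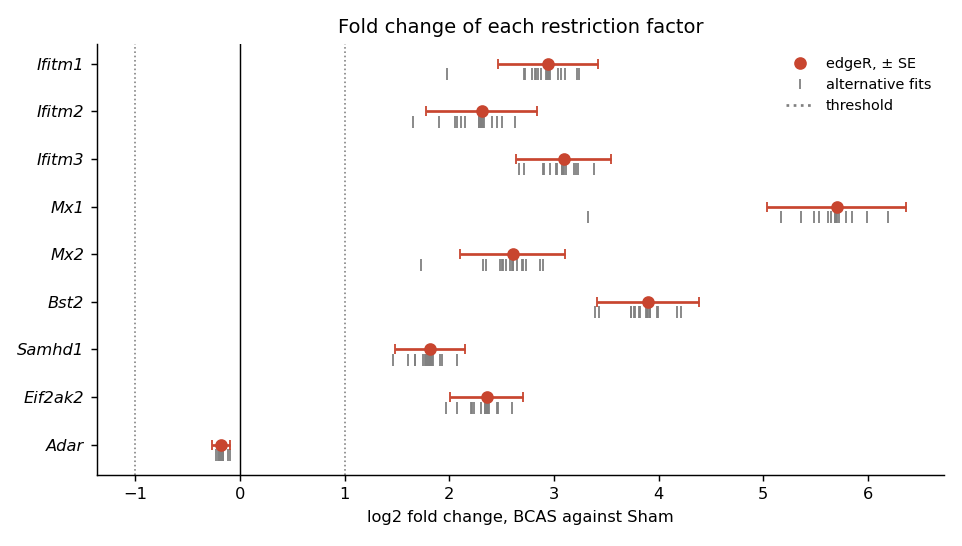
Log2 fold change of BCAS over Sham for the 9 restriction factors on the x axis, with the edgeR estimate as a point, its SE as a bar, each alternative analysis as a grey tick and the fold threshold of 1 in either direction as dotted lines. The points and ticks of 8 genes lie above 1, whereas the point of Adar lies at -0.18 and its ticks between -0.23 and -0.10.

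Levels of different genes were compared per kilobase of exon (CPM per kb). In Sham cortex Adar was the highest at a mean of 22.4, followed by Ifitm3 (9.91), Bst2 (3.67), Ifitm2 (3.32), Samhd1 (1.75), Eif2ak2 (1.57), Ifitm1 (0.894), Mx2 (0.274) and Mx1 (0.0672). Neighbours in this order whose ranges overlapped were Bst2 and Ifitm2, Samhd1 and Eif2ak2, and Mx2 and Mx1. Within every Sham mouse, Samhd1 was above Eif2ak2 and Mx2 above Mx1, while the order of Bst2 and Ifitm2 varied. In BCAS cortex the order was Ifitm3 (84.4), Bst2 (54.5), Adar (19.7), Ifitm2 (16.5), Eif2ak2 (8.05), Ifitm1 (6.91), Samhd1 (6.16), Mx1 (3.55) and Mx2 (1.67). The ranges of all neighbours overlapped in BCAS cortex. Within every BCAS mouse, Ifitm3 was above Bst2, Ifitm2 above Eif2ak2, Samhd1 above Mx1 and Mx1 above Mx2. The other neighbours did not keep the same order in all BCAS mice. Adar was ahead of Ifitm3 and Bst2 in Sham mice and behind both in group mean in BCAS mice. Per kb of exon not shared with another gene, Ifitm2 was at 5.63 in Sham and 27.9 in BCAS mice and Adar at 26.9 and 23.7.

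The 4 BCAS mice differed widely from each other. The coefficient of variation over BCAS mice was 50.5% to 68.2% in the 8 called genes and 10.2% in Adar. Mouse 1 exceeded mouse 2 by 3.62-fold in Samhd1 and Eif2ak2 and by up to 5.82-fold in Ifitm2, while for Adar the ratio was 0.786. From highest to lowest, the order was mouse 1, 3, 4, 2 in 7 of the 9 genes and 3, 1, 4, 2 in Ifitm1. The order 1, 3, 4, 2 was also that of 69.3% of all genes called higher and of 17.7% of all tested genes. Mouse 2 was the lowest BCAS mouse in all 8 called genes.

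**Figure D4:**
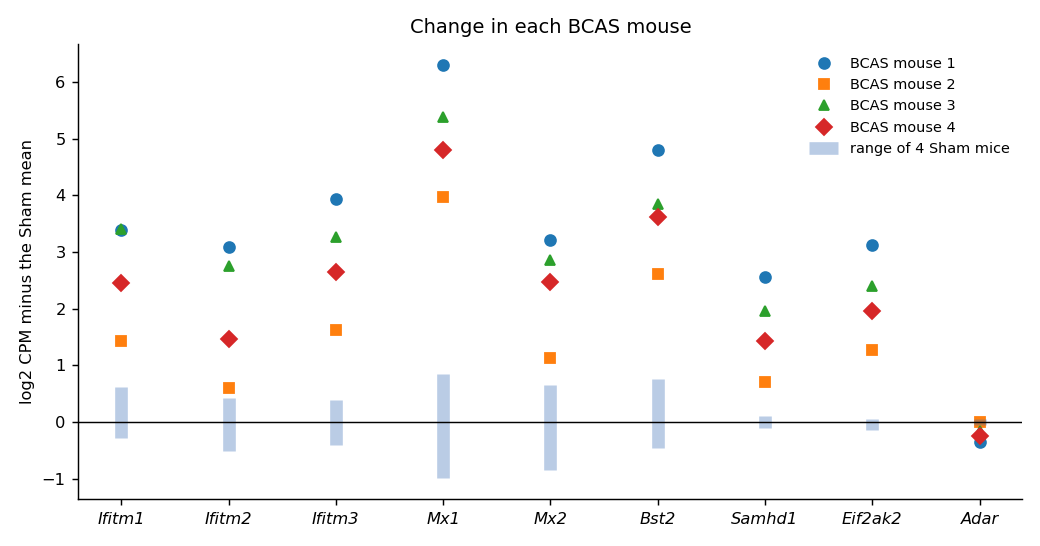
Level of each restriction factor in every BCAS mouse relative to the Sham mean, as the log2 difference in CPM, with 1 symbol per mouse and the range of the 4 Sham mice as a shaded bar. Mouse 2 is the lowest in the 8 called genes, and in Adar it is the highest and within the Sham range.

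Markers of several cell types differed between the groups together with these genes. For comparison, 11.0% of all tested genes were called higher and 1.28% lower. All 8 microglia markers were called higher, and their summed level was 341 to 414 CPM in Sham and 1260 to 4526 CPM in BCAS mice, with mouse 1 the highest and mouse 2 the lowest. Border macrophage markers summed to 16.6 to 20.5 and 30.6 to 90.9 CPM, with 4 of 6 called higher. Blood leukocyte markers summed to 1.15 to 2.06 and 4.79 to 99.8 CPM. Of the 9, 3 were tested and called higher, and none was at 0 in all libraries. These 3, Ccr2, Ly6c2 and Cd8a, passed the filter on low counts through their BCAS libraries, so their calls follow in part from the filter. Fibroblast and meningeal markers summed to 62.2 to 81.6 and 139 to 719 CPM, with 5 of 6 called higher. The summed level of 6 neuron markers was 7310 to 8523 CPM in Sham and 2805 to 6147 CPM in BCAS mice, with 1 called lower, whereas none of 8 endothelial markers (299 to 385 and 358 to 528 CPM) and none of 6 oligodendrocyte markers (3128 to 5036 and 4343 to 6686 CPM) was called. Among astrocyte markers, which summed to 5033 to 5935 and 5898 to 6857 CPM, 1 of 6 was called higher, and none of 6 pericyte and smooth muscle markers (227 to 272 and 239 to 380 CPM) was. The part of these markers in the changes of the restriction factors was not tested, and in bulk tissue a change in the number of cells of a type cannot be told apart from a change in RNA per cell.

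Other restriction factors of the same kind were counted from a list. Of 26 genes, 24 were tested, 17 were called higher and none lower, with a median log2 fold change of 2.52. The lowest p-values belonged to Ch25h, which makes the antiviral oxysterol 25-hydroxycholesterol (5.11, edgeR adjusted p = 0.00146), the TRIM family members Trim30d (3.78, adjusted p = 0.00154) and Trim30a (4.09, adjusted p = 0.00198), and Trim56 (1.72, adjusted p = 0.00195). Ch25h, with 8, 19, 13 and 7 counts in Sham mice, passed the filter on low counts through its BCAS libraries. So did Trim14, Trim30b and Isg20 among the 17 called genes. A further 2, Serinc3 and March8, passed the p threshold but not that of fold, with an adjusted p for March8 of up to 0.114 in alternative analyses. Both were named after their values were seen.

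Ligands and receptors of the interferon pathway were examined last. Of 10 interferon genes none passed the filter, and 8, including Ifnb1, had 0 counts in all libraries, where a count of 0 allows up to 0.187 CPM. Ifng had 0, 1, 0 and 0 counts in Sham and 3, 1, 4 and 0 counts in BCAS mice. Of 15 receptor and signalling genes, all tested, 8 were called higher and none lower, with a median of 1.28, against 11.0% called higher among all tested genes. Among them were the transcription factors Irf7 (4.10, edgeR adjusted p = 0.00280) and Irf9 (2.24, adjusted p = 0.00280) and the receptor chains Il10rb (2.39, adjusted p = 0.00361) and Ifnar2 (1.78, adjusted p = 0.00408).

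**Figure D5:**
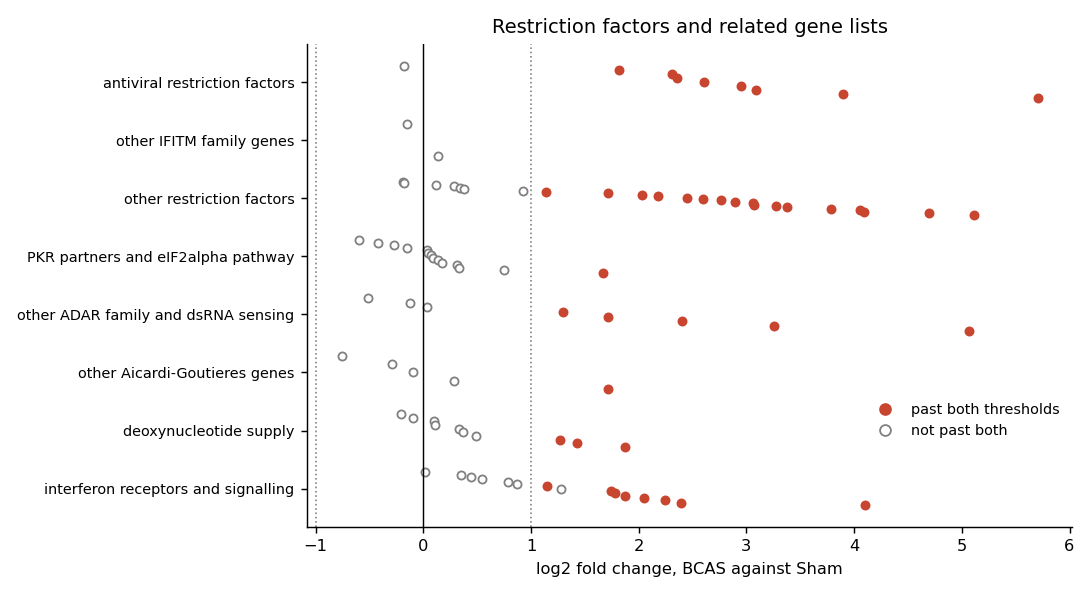
Log2 fold change of BCAS over Sham for the tested genes of each list, with 1 point per gene, filled where the gene was called, and the fold threshold as dotted lines. The medians are 2.60 for the 9 restriction factors, 2.52 for other restriction factors and 1.28 for interferon receptors and signalling, against 0.08 for the eIF2alpha pathway and -0.01 for the IFITM genes outside the 9.

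The genes most alike to each restriction factor were sought by Pearson's r of log2 CPM over the 8 libraries, among 12435 other genes that averaged 100 or more counts per library. The closest were Neurl3 and Casp8 for Ifitm3 (r = 0.998 each), Ikbke and Stat5b for Ifitm1 (0.993 and 0.992), Plod2 and Rnf149 for Ifitm2 (0.996 and 0.994), Tgm1 and H2-Q6 for Mx1 (0.995 and 0.994) and Myoc and Pprc1 for Mx2 (0.997 and 0.996). For Bst2 they were Ikzf1 and Treml2 (0.997 each), for Samhd1 Fli1 and Asah1 (0.998 each), for Eif2ak2 Lpxn and Plekhf2 (0.998 each) and for Adar Grin2b and 4932438A13Rik (0.995 and 0.993). Such values are common where the same 8 libraries differ between and within groups: 1616 genes had an r above 0.95 with Samhd1 and 670 with Adar. The points share libraries and depth, and the values are a description.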

How the data were processed

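RNA-seq libraries were made from the right cerebral cortex of 4 Sham and 4 BCAS mice. The authors trimmed reads with Trim Galore, aligned them to mm10 with HISAT2, sorted them with SAMtools 1.9 and counted read pairs per gene with featureCounts. The deposited values are raw counts per gene, not normalized. The deposited headers name featureCounts 2.0.1 and GENCODE vM20 and show no strand or multi-mapping option, whereas the labels name version 1.6.3. Without such an option, reads that match several genes alike are left out.

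Counts were tested with edgeR 4.0.16 in R 4.3.3 (TMM, filterByExpr with a minimum count of 10 and a minimum total of 15, quasi-likelihood F-test of the operation, Benjamini-Hochberg adjustment over all 17136 tested genes). The standard error is the log2 fold change divided by the square root of F. Ratios of gene pairs were compared by the two-sided exact permutation test over 70 arrangements, with a prior count of 2 added to each count. Alternatives used other scalings and filters, DESeq2 1.42.0, limma 3.58.1 (voom and log2 CPM), a replicate block and leaving out each mouse. The 4 promoter windows and transcript types came from RefSeq on GRCm38.p6, and symbols and gene positions from GENCODE. A second promoter motif that was searched is not reported here. The code was tested on simulated data. The 9 genes and all lists were chosen with earlier results of these data known. Named genes were the 9 genes, the 4 tested genes with the smallest p in each list, list genes near 0, and for each of the 9 the 2 genes most alike to it; others are marked as named after their values were seen. The mice are biological replicates, and no libraries were duplicates.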

Additional observations from a re-analysis of the deposited data

Results flagged for a closer look

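In a group of 4 mice, 1 animal can lie apart from the other three. The gap of the most distant mouse to its nearest neighbour, divided by the range of the group, was computed for 28 groups of 4 and set against Dixon's 95% critical value, which chance passes in about 1 of 20 groups. It was passed in 2 groups. For Ifitm1 in Sham mice the share was 0.856, with Sham mouse 4 at 1.51 CPM above the other three (0.749 to 0.858 CPM). For Eif2ak2 in Sham mice it was 0.917, with Sham mouse 2 at 7.24 CPM below the other three (8.24 to 8.33 CPM). Both genes were called higher in BCAS mice with each mouse left out in turn.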

How the results depend on the processing

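The number of the 9 genes called higher was 8 in the reported analysis and in each alternative except limma-voom, which gave 7 because Ifitm2 had a log2 fold change of 2.05 with an adjusted p of 0.0565, and the filter of 10 counts in every library, which gave 6 because Mx1 and Mx2 were not tested. When any 1 mouse was dropped, the log2 fold change was 2.71 to 3.24 for Ifitm1, 1.9 to 2.62 for Ifitm2, 2.67 to 3.39 for Ifitm3, 5.17 to 6.19 for Mx1, 2.32 to 2.90 for Mx2, 3.43 to 4.21 for Bst2, 1.46 to 2.07 for Samhd1 and 1.97 to 2.60 for Eif2ak2, with adjusted p-values of at most 0.0477. Adar ranged from -0.23 to -0.12, and passed the p threshold only without BCAS mouse 2 (adjusted p = 0.0459). With BCAS mice 3 and 4 alone against all Sham mice, an alternative chosen after seeing the data, the same 8 genes were called and Adar was at -0.17 (adjusted p = 0.0988).

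Over all genes, 1877 were called higher and 220 lower. On the adjusted p alone these were 3291 and 2199, and limma on log2(CPM + 1) called 145 lower. Leaving out 1 mouse gave 86 (without Sham mouse 1) to 559 genes called lower (without BCAS mouse 2), with 129 without Sham mouse 2, 127 without Sham mouse 4, 112 without BCAS mouse 1 and 133 without BCAS mouse 4. Over the same fits the difference in log2 ratio ranged from 0.72 to 1.07 for Ifitm3 to Ifitm2, -0.0068 to 0.43 for Ifitm3 to Ifitm1, -1.07 to -0.45 for Ifitm2 to Ifitm1, 2.49 to 2.83 for Mx1 to Mx2 and 2.01 to 2.74 for Eif2ak2 to Adar. Without Sham mouse 4 the adjusted p was 0.0476 for Ifitm3 to Ifitm2, Ifitm2 to Ifitm1 and Mx1 to Mx2, and the Ifitm3 to Ifitm1 difference turned to -0.0068. In each other fit that left out 1 mouse, the adjusted p of all 5 ratios stayed above 0.05. Ifitm7 ranged from -0.025 to 0.27, turning to -0.0012 without Sham mouse 1 and -0.025 without BCAS mouse 4, Ifitm10 from -0.29 to -0.0024 and Rnaseh2b from 0.18 to 0.39. The cause of these moves was not tested.

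With the replicate number as a block, the genes called were 1624 higher and 185 lower, and no call among the 9 genes changed (Ifitm2 2.08, adjusted p = 0.0386, and Adar -0.19, adjusted p = 0.203). The mice share only a number: the deviations of same-numbered mice correlated at -0.103 to 0.00126. Under the block the adjusted p was 0.0581 for Trib3, 0.0588 for Rrm2, 0.0583 for Dguok, 0.0806 for Eif2ak1, 0.0750 for Prkra, 0.0642 for Ppp1r15b and 0.0935 for March8. Depth limits Mx1 in Sham mice, with 1 to 8 counts per library, and the interferon ligands.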
